A study of Mus musculus with 4 samples.

Results

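The mouse genes named *Zfp700* to *Zfp999* were examined as a set in sorted embryonic interneurons with and without a conditional *Dnmt1* deletion. Of 56883 genes in the table, 134 rows carry such a name (133 symbols, since *Zfp783* occurs under 2 identifiers), and in 107 of them the normalized counts of the 4 libraries averaged at least 10. These 107 members were selected on that mean, which is a measured value but does not compare the genotypes. A normalized count is the number of reads on a gene divided by 1 size factor for the library, so it can be compared between libraries but not between genes of unequal length.

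Control cells carried Sst-Cre and the tdTomato reporter, and knockout (KO) cells carried the genotype Sst-Cre/tdTomato/Dnmt1 loxP2, that is, the same driver and reporter with floxed *Dnmt1*. In both genotypes, Cre and therefore tdTomato followed the somatostatin promoter, so the deletion was limited to Sst-expressing cells and their progeny. The tdTomato-positive cells were taken from the basal telencephalon at E14.5, pooled from several embryos per genotype, and sequenced as 2 libraries per genotype. The comparison asks which genes change when the maintenance DNA methyltransferase DNMT1 is lost from these cells.

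Most genes of this numbered series encode C2H2 zinc finger proteins, in which each finger folds around a zinc ion and reads a few bases of DNA. Many also carry a Krüppel-associated box (KRAB) near the amino terminus. The KRAB box binds TRIM28, which gathers the histone methyltransferase SETDB1, HP1 proteins and other repressors on the DNA, and many KRAB zinc finger proteins are known for silencing retrotransposons in this way. The genes arose by repeated local duplication and often stand in clusters of near-identical copies. Methylated CpG is among the marks that hold such repressed DNA silent, and DNMT1 copies it after replication.

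The annotation placed the 107 members on 16 chromosomes. A sequence pattern for the KRAB box matched the protein of 84 members and not that of 21, and the other 2 members (*Zfp783* and *Zfp939*) have no coding sequence in the annotation. The 21 without a match are called members without KRAB below, so a box that the pattern missed is counted as absent. The KRAB members had a median of 11 fingers (4 to 23), and the members without KRAB a median of 7 (0 to 21). The coding stretch of the KRAB box is printed for the 8 KRAB members whose level passed the test below. It is the part through which these proteins recruit the repressor complex. The stretches show how alike these 8 are, and the search pattern fixed part of that agreement in advance. Each stretch covers 81 coding bases of the canonical transcript, read 5′ to 3′ from GRCm39, and capitals mark the 30 positions at which all 8 agree.
Zfp973: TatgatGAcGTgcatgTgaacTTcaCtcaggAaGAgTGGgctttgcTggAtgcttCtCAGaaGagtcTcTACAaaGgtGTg
Zfp944: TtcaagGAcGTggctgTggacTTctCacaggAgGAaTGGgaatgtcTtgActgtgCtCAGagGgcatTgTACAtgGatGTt
Zfp948: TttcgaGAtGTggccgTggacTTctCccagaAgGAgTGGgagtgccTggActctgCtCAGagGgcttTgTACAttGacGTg
Zfp810: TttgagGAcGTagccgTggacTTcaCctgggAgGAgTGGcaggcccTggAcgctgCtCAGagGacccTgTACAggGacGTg
Zfp941: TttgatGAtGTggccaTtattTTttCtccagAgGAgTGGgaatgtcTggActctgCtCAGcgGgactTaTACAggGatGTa
Zfp738: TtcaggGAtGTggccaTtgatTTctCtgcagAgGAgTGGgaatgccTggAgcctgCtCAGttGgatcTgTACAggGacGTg
Zfp871: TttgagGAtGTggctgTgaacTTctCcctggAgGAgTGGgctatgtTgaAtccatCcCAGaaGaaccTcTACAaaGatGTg
Zfp965: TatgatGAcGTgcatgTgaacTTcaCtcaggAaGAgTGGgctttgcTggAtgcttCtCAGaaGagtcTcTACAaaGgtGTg

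The stretches of *Zfp965* and *Zfp973* were identical at 81 of 81 bases, and the next closest pair, *Zfp944* and *Zfp948*, at 64 of 81. The least alike pairs, *Zfp738* with *Zfp965* or with *Zfp973*, shared 47 of 81 bases. *Zfp965* (chr2:175311778-175323964, plus strand) and *Zfp973* (chr2:176362315-176410878, plus strand) are also identical over the 250 bases that precede each annotated gene. This shared upstream sequence lies at chr2:175311528-175311777 for *Zfp965* and at chr2:176362065-176362314 for *Zfp973*. It is shown once, with its 3 CpG dinucleotides, the bases that DNMT1 can keep methylated, in capitals. Methylation was not measured in these libraries.
Zfp965 and Zfp973 upstream: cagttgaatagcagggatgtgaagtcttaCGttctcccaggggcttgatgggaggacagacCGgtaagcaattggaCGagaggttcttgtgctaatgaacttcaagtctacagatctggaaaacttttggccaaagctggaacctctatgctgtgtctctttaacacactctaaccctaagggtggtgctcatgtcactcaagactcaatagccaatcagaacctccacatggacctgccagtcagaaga

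Recovered reads per library ranged from 6970247 to 8376711. *Dnmt1* itself had normalized counts of 2238 and 2341 in the control and 2164 and 2210 in the KO libraries (log2 fold change -0.07 ± 0.05 SE, limma adjusted p = 0.461). A sum over the whole gene does not separate the floxed exons from the rest, so this level did not check the labels. Marker genes of several cell types differed between the genotypes. The summed normalized count of 14 interneuron markers was 25173 and 25328 in the control and 38779 and 39119 in the KO libraries, and 12 of the 14 passed the test as higher. Blood genes fell (8 of 8 tested, sums of 2433 to 2610 against 587 to 592), as did 15 of 18 radial glia and cycling progenitor genes (16379 to 16435 against 9676 to 9964), 7 of 9 genes of the excitatory lineage (3081 to 3116 against 1534 to 1671) and 7 of 11 tested vascular, glial and immune genes (713 to 722 against 344 to 374). No defining marker of these lists was at 0 in all libraries. The part of these differences in the results below was not tested, and in pooled cells a smaller number of cells of a type and less RNA per cell cannot be told apart.

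Expression of the members changed little between the genotypes. At a Benjamini-Hochberg adjusted p below 0.05 over all 14323 genes tested with limma, 8 members were higher and 1 was lower in *Dnmt1* KO cells, which is 7.48% and 0.935% of the 107. The lower member, *Zfp965*, entered the set through its control level alone. Of the 105 members with a mean of at least 10 in both genotypes, 8 were higher and 0 lower. Among all genes tested, 8.3% were called higher and 8.99% lower. The members' share of higher calls was thus near that of the table, and their share of lower calls was smaller. Among the 4004 genes whose mean lay between the quartiles of the members (42.9 to 164), 3.55% were called higher and 10.0% lower. Of the 223 tested genes named *Zfp1* to *Zfp699*, 21 (9.42%) were higher and 4 (1.79%) lower.

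The fold changes were small. The median log2 fold change of the members was 0.12 (quartiles -0.09 and 0.27), against 0.00 for all genes tested and 0.04 for *Zfp1* to *Zfp699*. A positive log2 fold change was found in 68 of 107 members (63.6%) and in 49.5% of all genes. Both KO libraries lay above both control libraries in 36 members (33.6%) and below them in 13 (12.1%), against 28.4% and 29.0% of all genes. The summed normalized count of the members was 15629 and 15337 in the control and 17247 and 16747 in the KO libraries. With TMM factors the members' median stayed at 0.12, and with quantile normalization it was 0.19. It did not stay positive when trends with transcript length and GC were regressed out of each library. The members' median then moved to -0.02 and positive values to 50 of 107, a step that moved the median of all genes by less than 0.1. The median GC content of the members' transcripts was 41.3%, against 49.9% for all genes tested. Before that step, log2 fold change had a Spearman correlation of -0.14 with GC content over all genes and of -0.10 over the members. With transcript length the correlation was 0.16 over all genes and 0.01 over the members. These correlations are given as a description.

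**Figure D1:**
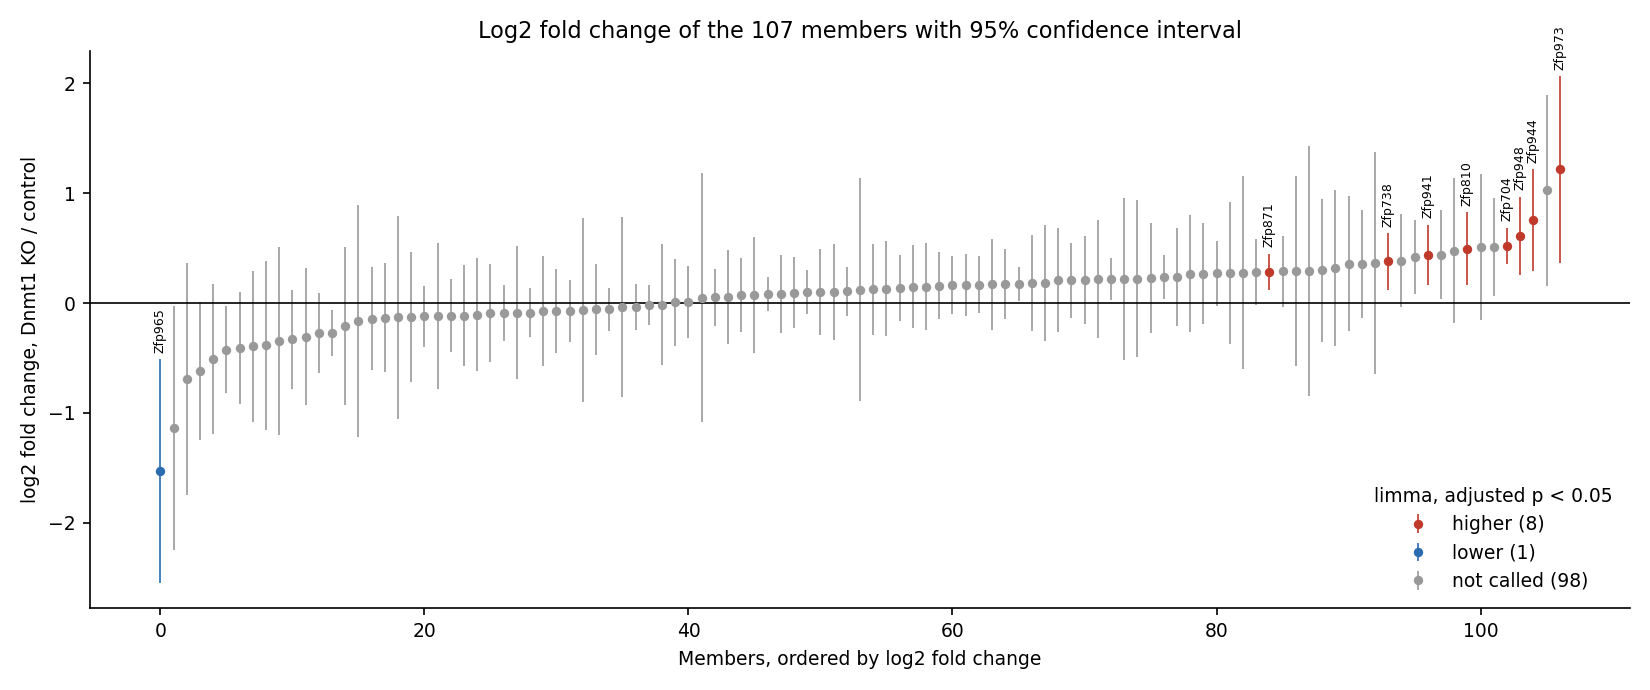
Log2 fold change (*Dnmt1* KO over control, y axis) of each of the 107 members, ordered from lowest to highest on the x axis, with the 95% confidence interval of the limma fit as a vertical line. Red marks the 8 members called higher, blue the 1 called lower and gray the other 98, most of whose intervals include 0.

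**Figure D2:**
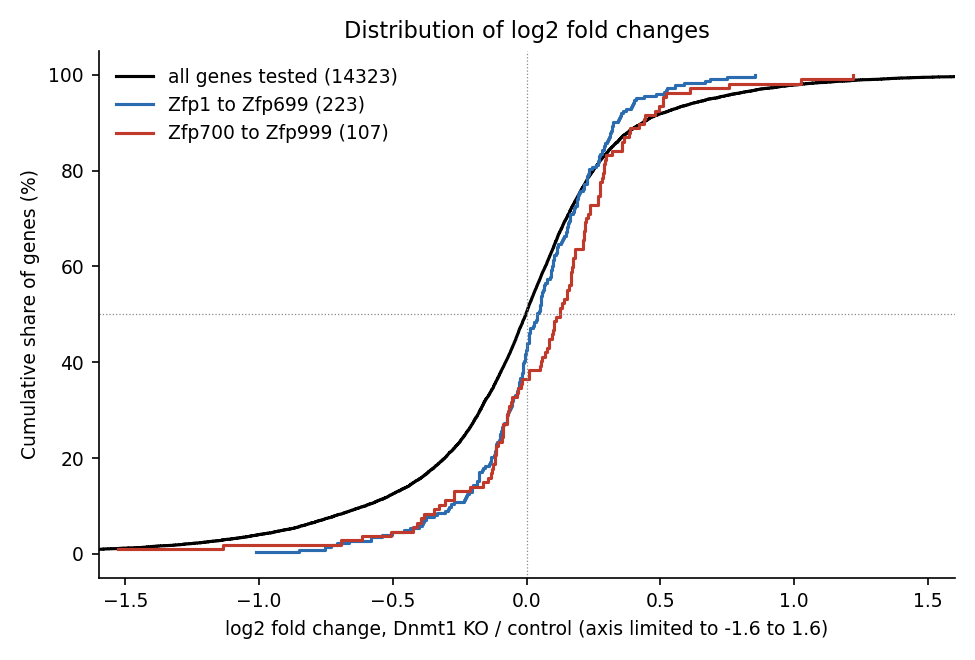
Cumulative share of genes (y axis, percent) by log2 fold change (x axis, limited to the central range) for all 14323 genes tested (black), the 223 genes *Zfp1* to *Zfp699* (blue) and the 107 members (red). The members' curve crosses 50% at 0.12, and both zinc finger curves lie below that of all genes over most of the negative side.

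The precision of these values was limited by the low counts. The median standard error was 0.21 on the log2 scale for the members and 0.16 for all genes tested, and the median normalized count was 84.9 against 148. The 95% interval of the log2 fold change lay within -0.5 and 0.5 for 32 members and within -1 and 1 for 85. In the other 22 members the interval reached beyond a log2 change of 1 in at least 1 direction. None of the 32 members with a mean under 50 had an interval within -0.5 and 0.5.

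Among the members higher in KO cells, *Zfp704* (chr3:9492080-9675213, minus strand) had the smallest adjusted p in the main limma fit. It encodes a protein with 1 C2H2 finger and no KRAB box, and its closest relative among annotated proteins was that of *Zfp395* (30.4% identity). The control libraries gave 1136 and 956 and the KO libraries 1522 and 1471 normalized counts (0.52 ± 0.08 SE on the log2 scale, limma adjusted p = 0.000261). The genotypes did not overlap, and the difference was several times the SD between libraries of 1 genotype (128 in the control and 36.3 in the KO, n = 2 each). It was the only member called by DESeq2, which called 4.8% of all genes it adjusted as higher and 5.17% as lower, and the only one called in each of the 4 fits without 1 library. When limma was run without its variance trend, *Zfp704* was not called (limma adjusted p = 0.13), and neither was any other member. In the annotation, 4 other genes overlap *Zfp704* on the opposite strand and *Gm33169* overlaps it on the same strand. Whether reads were counted by strand is not given in the sources used here.

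The 7 other members called higher all encode KRAB zinc finger proteins, with 6 to 20 fingers. *Zfp944* (chr17:22555085-22580718) had 57.3 and 49.0 in the control and 81.9 and 99.4 in the KO libraries (log2 fold change 0.76 ± 0.22 SE, limma adjusted p = 0.0253). *Zfp948* (chr17:21787117-21809585), in the same genomic cluster, had 94.9 and 91.9 in the control and 132 and 155 in the KO libraries (0.61 ± 0.17 SE, limma adjusted p = 0.0196). Both KO values exceeded both control values in each of these genes, and the KO libraries differed more from each other than the control libraries did. *Zfp944* overlaps *Zfp758* on the other strand, where *Zfp758* had 64.4 and 42.9 in the control and 60.2 and 62.3 in the KO libraries.

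*Zfp810* (chr9:22183979-22219350) had 127 and 112 in the control and 182 and 156 in the KO libraries (log2 fold change 0.50 ± 0.16 SE, limma adjusted p = 0.0391). *Zfp941* (chr7:140387362-140402123) had 174 and 205 in the control and 248 and 266 in the KO libraries (0.44 ± 0.13 SE, limma adjusted p = 0.0279). In both, the lower KO library stood above the higher control library. *Zfp810* shares part of its locus with *Zfp809* on the other strand, which was not called. On the same strand, *Zfp810* overlaps *Gm18225* and *Gm48627*, and *Zfp941* overlaps *Gm45785*.

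*Zfp738* (chr13:67806804-67835190), which has 20 fingers, had 224 and 219 in the control and 265 and 315 in the KO libraries (log2 fold change 0.38 ± 0.12 SE, limma adjusted p = 0.0415). *Zfp871* (chr17:32984470-33007271) had 647 and 669 in the control and 837 and 766 in the KO libraries (0.28 ± 0.08 SE, limma adjusted p = 0.021). These 2 genes have among the longest transcripts of those called (13292 and 10861 bases), and with the length and GC trend removed their log2 fold changes were 0.09 and 0.06 with limma adjusted p of 0.684 and 0.655. Leaving out 1 library also ended calls among these 7: *Zfp871* and *Zfp810* were not called without KO replicate 1, the calls of *Zfp738*, *Zfp941*, *Zfp944* and *Zfp948* were lost without KO replicate 2, none of the 7 was called without control replicate 1, and *Zfp941* was the only one of the 7 called without control replicate 2. The length and GC step ended the calls of *Zfp944* (0.55, adjusted p = 0.1) and *Zfp948* (0.50, adjusted p = 0.0535), while *Zfp704* stayed at 0.48 (adjusted p = 0.000432).

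**Figure D3:**
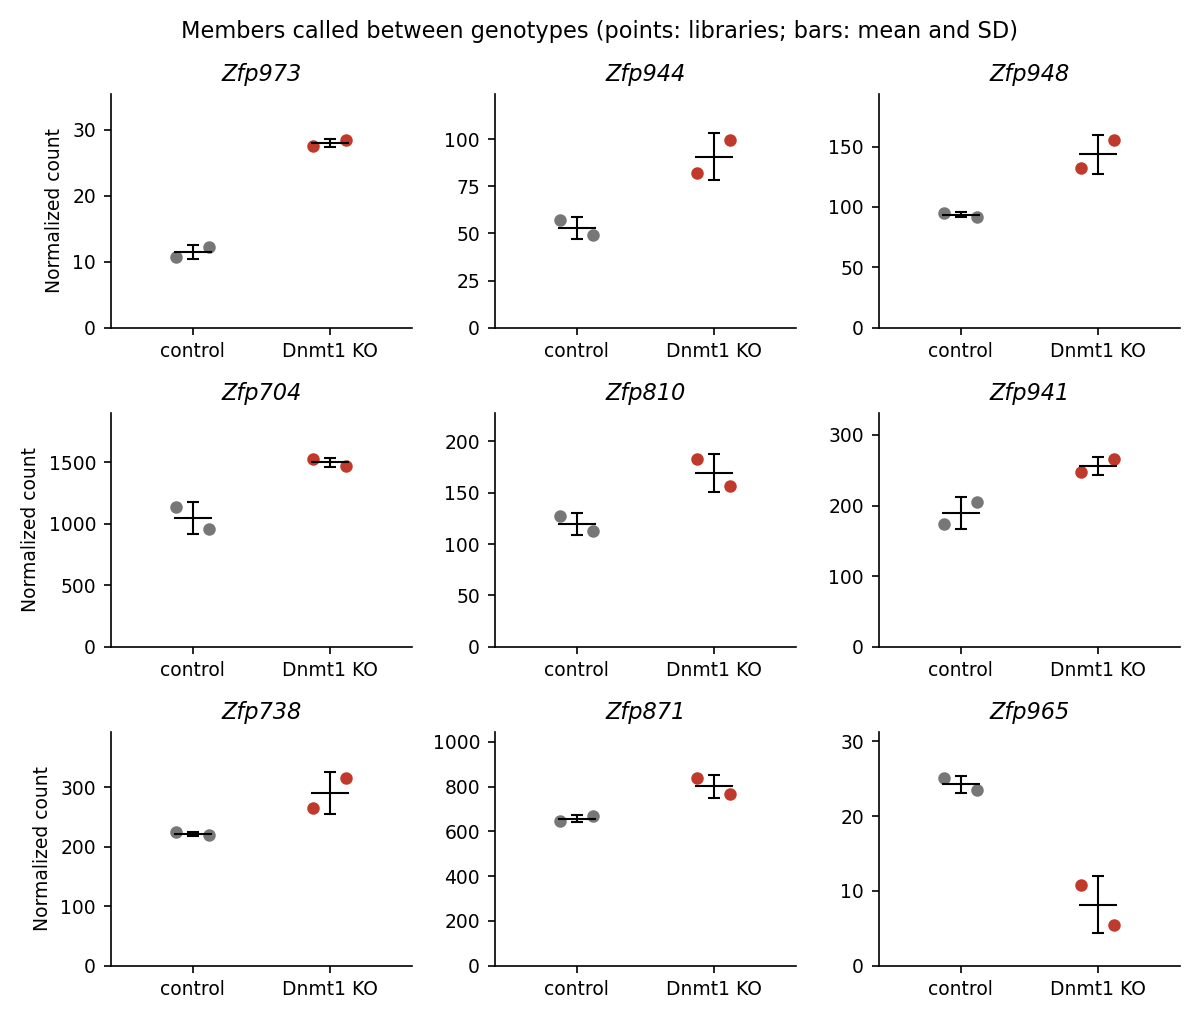
Normalized count (y axis, from 0, a separate scale for each gene) of the 9 members called between the genotypes, in the 2 control (gray) and 2 *Dnmt1* KO (red) libraries. Points are libraries and black bars are the mean and SD. The genotypes do not overlap in any of the 9 genes, which are shown because they were called. Among all genes tested, both KO libraries lay above both controls in 28.4% and below them in 29.0%.

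The largest change in either direction belonged to 2 members whose proteins are 100% identical. *Zfp965* was the only member called lower, with 25.1 and 23.5 in the control and 10.9 and 5.46 in the KO libraries (log2 fold change -1.53 ± 0.48 SE, limma adjusted p = 0.0379). It entered the set only through its control level, so its fall is tied to the way members were selected. *Zfp973* was the member with the largest increase, with 10.7 and 12.3 in the control and 27.6 and 28.4 in the KO libraries (1.22 ± 0.40 SE, limma adjusted p = 0.0471). Each passes the test alone, but 100% of the 75-base windows of the *Zfp965* transcript and 76.2% of those of the *Zfp973* transcript also occur in another gene, in both cases most often in each other. A read that lies within such a window fits more than 1 gene, and both calls are uncertain. *Zfp965* was called in the fit without KO replicate 1 but in none of the 3 other fits without 1 library, and *Zfp973* in none of the 4.

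The sum of *Zfp965* and *Zfp973*, taken after these values were seen, did not follow either gene. It was 35.8 and 35.7 in the control and 38.5 and 33.9 in the KO libraries, or 35.8 ± 0.0449 against 36.2 ± 3.25 (SD, n = 2), a log2 difference of 0.01. The share of that sum counted for *Zfp965* was 70.0% and 65.7% in the control and 28.2% and 16.1% in the KO libraries. The pair *Zfp968* and *Zfp969*, whose windows were shared at 99.7% and 100%, was not called: *Zfp968* had 63.5 and 68.4 against 57.2 and 42.6, and *Zfp969* had 200 and 159 against 211 and 223. Their sum was 263 and 228 in the control and 268 and 266 in the KO libraries, a log2 difference of 0.12.

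**Figure D4:**
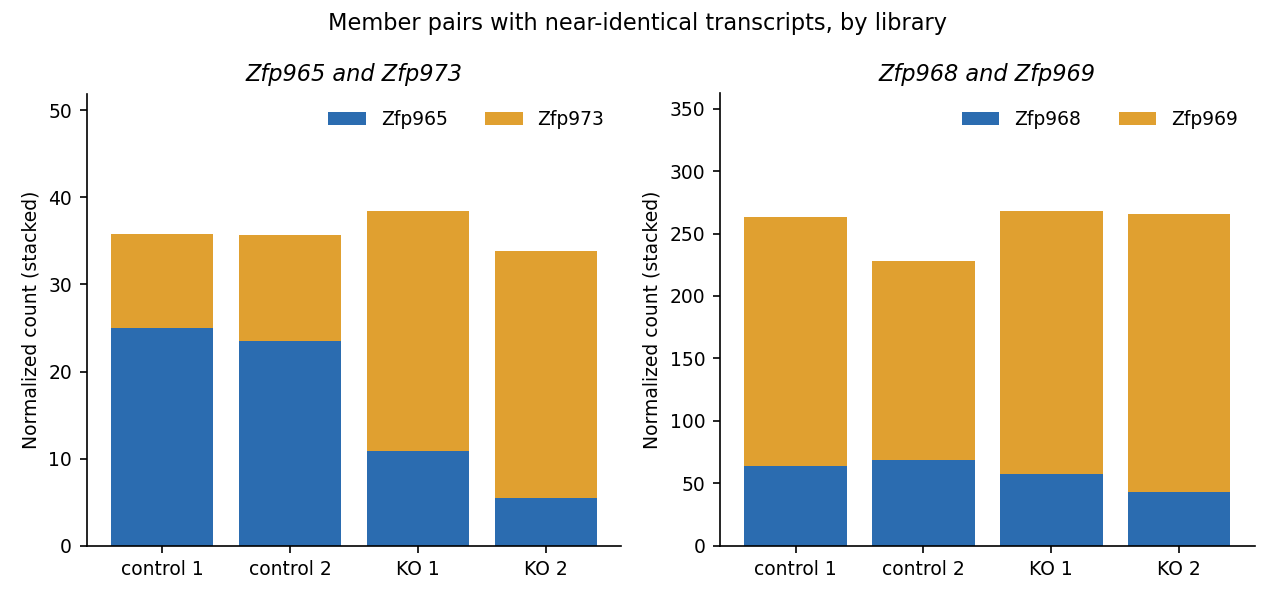
Normalized counts (y axis, stacked from 0) of 2 pairs of members with near-identical transcripts in each library (x axis). The total for *Zfp965* and *Zfp973* stays between 33.9 and 38.5 while the part counted for *Zfp965* is 23.5 to 25.1 in the control and 5.46 to 10.9 in the KO libraries.

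At least 10% of the 75-base windows were shared with another gene in 12 members, and none was shared in 73. Over the 95 members under 10%, 7 (7.37%) were called higher and 0 lower in the same limma fit, against 8.3% and 8.99% of all genes tested. In that fit 15 of the 95 had an unadjusted p below 0.05 (15.8%, against 30.2% of all genes tested). The same limma fit gave these 95 a median log2 fold change of 0.13. *Zfp939* is an annotated pseudogene that overlaps a noncoding gene of the same name on the same strand. It shares 100% of its windows with that gene. The pseudogene had 17.9 and 12.3 in the control and 42.4 and 22.9 in the KO libraries and was not called (1.03 ± 0.41 SE, limma adjusted p = 0.0992). *Zfp781*, named *Zfp781b* in the annotation, is given because its 2 KO libraries lay on both sides of the control, and it was chosen after its values were seen. It had 89.5 and 76.6 in the control and 152 and 42.6 in the KO libraries, with 17.3% of its windows shared.

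Of 12 members listed for a known role, *Zfp704* was the only one called. Among all genes tested, 8.3% were called higher and 8.99% lower, so few calls among 12 genes do not set them apart. *Zfp809*, which directs TRIM28 to the primer binding site of murine leukemia viruses and related endogenous retroviruses, had 45.6 and 45.9 in the control and 49.3 and 41.5 in the KO libraries (log2 fold change -0.02, 95% interval -0.57 to 0.53). *Zfp708*, which helps to keep methylation on a class of retrotransposons in the early embryo, had 80.5 and 54.1 against 72.0 and 39.3 (-0.30, interval -0.93 to 0.32), but 97.2% of its windows occur in an overlapping annotated gene. *Zfp932*, which binds endogenous retroviruses, had 95.8 and 128 against 121 and 92.9 (-0.06, interval -0.48 to 0.36), with 36.8% of its windows shared. In each of these 3 retrotransposon-directed genes the genotypes overlapped, and the intervals include 0.

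*Zfp746*, known as PARIS, a parkin substrate that represses the gene for PGC-1alpha, had 260 and 222 in the control and 257 and 282 in the KO libraries (log2 fold change 0.16, 95% interval -0.10 to 0.43). *Zfp711*, an X-linked regulator that works with the histone demethylase PHF8, had 225 and 267 against 265 and 285 (0.17, interval -0.09 to 0.43). *Zfp827*, whose human ortholog recruits the NuRD complex to telomeres, had 689 and 787 against 767 and 654 (-0.06, interval -0.25 to 0.14). The genotypes overlapped in all 3 genes. *Zfp703*, a NET family repressor without a classical finger in the search used here, had 112 and 98.0 against 77.9 and 77.6 (-0.42, interval -0.82 to -0.03, limma adjusted p = 0.136), and here both KO libraries lay below both controls without reaching the threshold. *Zfp768* had 239 and 240 against 202 and 257 (-0.07, interval -0.35 to 0.21), and *Zfp777* had 292 and 289 against 317 and 309 (0.11, interval -0.12 to 0.33). *Zfp819* was not a member, with a mean of 0.47 in the 4 libraries.

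Per kilobase of transcript, the members' mean normalized count ranged from 2.82 to 296, with a median of 25.4. The 5 highest were *Zfp821* (296 per kilobase), *Zfp740* (195), *Zfp706* (139), *Zfp866* (137) and *Zfp830* (101). *Zfp706*, a short protein of 76 residues reported to restrain self-renewal of embryonic stem cells, had 642 and 593 in the control and 635 and 582 in the KO libraries (log2 fold change -0.02, 95% interval -0.20 to 0.16). *Zfp821* had 902 and 850 against 901 and 956 (0.08, interval -0.07 to 0.24). *Zfp830*, needed for cell proliferation in the early embryo, had 144 and 161 against 167 and 169 (0.14, interval -0.16 to 0.44). In these 3 genes the interval of the difference includes 0.

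*Zfp740* had 856 and 825 in the control and 977 and 922 in the KO libraries (log2 fold change 0.17, interval 0.02 to 0.33, limma adjusted p = 0.111). *Zfp866* had 425 and 392 against 474 and 488 (0.24, interval 0.04 to 0.43, limma adjusted p = 0.0924). Both stood higher in both KO libraries but were not called. With the length and GC trend removed, *Zfp740* was called (0.28, limma adjusted p = 0.0145).

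By class, 7 of 84 KRAB members (8.33%) were called higher and 1 (1.19%) lower, with a median log2 fold change of 0.12. Of the 21 members without KRAB, 1 (4.76%) was called higher and 0 lower, with a median of 0.10. Among all genes tested, 8.3% were called higher and 8.99% lower, so the share of higher KRAB calls was near that of the table. Among the 4004 genes with a mean between the quartiles of all members, 3.55% were called higher and 10.0% lower. An unadjusted limma p below 0.05 was found in 12 of 84 (14.3%) and 6 of 21 (28.6%), against 30.2% of all genes tested. The difference between the classes was not tested. The KRAB members had a lower median level per kilobase (23.9 against 37.0). Their promoters, counted over 250 bases before and 50 after the canonical start, held fewer CpG, with a median of 8 against 19 in members without KRAB and 18 in 12278 tested protein-coding genes. Among the 59 members with at least the median of 9 promoter CpG, 4 (6.78%) were called higher and 0 lower in limma, with 9 of 59 (15.3%) at an unadjusted p below 0.05. Among the other 48 members, 4 (8.33%) were called higher and 1 (2.08%) lower. The median log2 fold changes of these 2 groups were 0.11 and 0.14. Over the members, log2 fold change had Spearman correlations of 0.01 with promoter CpG count, 0.01 with transcript length and 0.12 with the number of fingers (105 coding members), given as descriptions of points that share the same 4 libraries.

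Of the 107 members, 58 lay in 12 genomic clusters, defined as at least 3 members whose neighboring starts are within 500000 bases. These clustered members held 4 of the 8 higher calls and the lower call, which is 6.9% and 1.72% of the 58. Of the 49 members outside clusters, 8.16% were called higher and 0 lower. Among all genes tested, 8.3% were called higher and 8.99% lower. The largest cluster, chr17:21787117-23086292, holds 13 KRAB members, of which 11 had a positive log2 fold change and 2 (*Zfp944* and *Zfp948*) were called higher. Its median was 0.23, and its members' values ranged from -0.13 for *Zfp983* to 0.76 for *Zfp944*. The summed normalized count of the cluster was 1088 and 1059 in the control and 1281 and 1168 in the KO libraries. With the length and GC trend removed, 6 of the 13 were positive and the median was -0.05, and none was called higher, while *Zfp945* was called lower (193 and 210 in the control against 193 and 178 in the KO libraries before that step, and -0.48 after it, limma adjusted p = 0.0173).

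A second cluster on chromosome 17, chr17:32984470-33252385, holds 6 KRAB members with a median of 0.01. Its log2 fold changes ran from -0.27 for *Zfp811* to 0.28 for *Zfp871*, the only 1 of the 6 called. The 5 members at chr13:67186660-67835190, with *Zfp738* as the only call, ran from -0.30 to 0.38 around a median of 0.18. The 5 at chr6:47796198-48063679 had a median of 0.16 and no call. The 3 at chr2:175214229-175495472 are *Zfp965*, *Zfp968* and *Zfp969*, and had a median of -0.41. Of these, *Zfp968* and *Zfp969* share windows with each other, whereas *Zfp973*, the partner of *Zfp965*, lies outside the cluster. Cluster medians in the other 7 lay between -0.07 and 0.14, with no call in any of the 7.

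**Figure D5:**
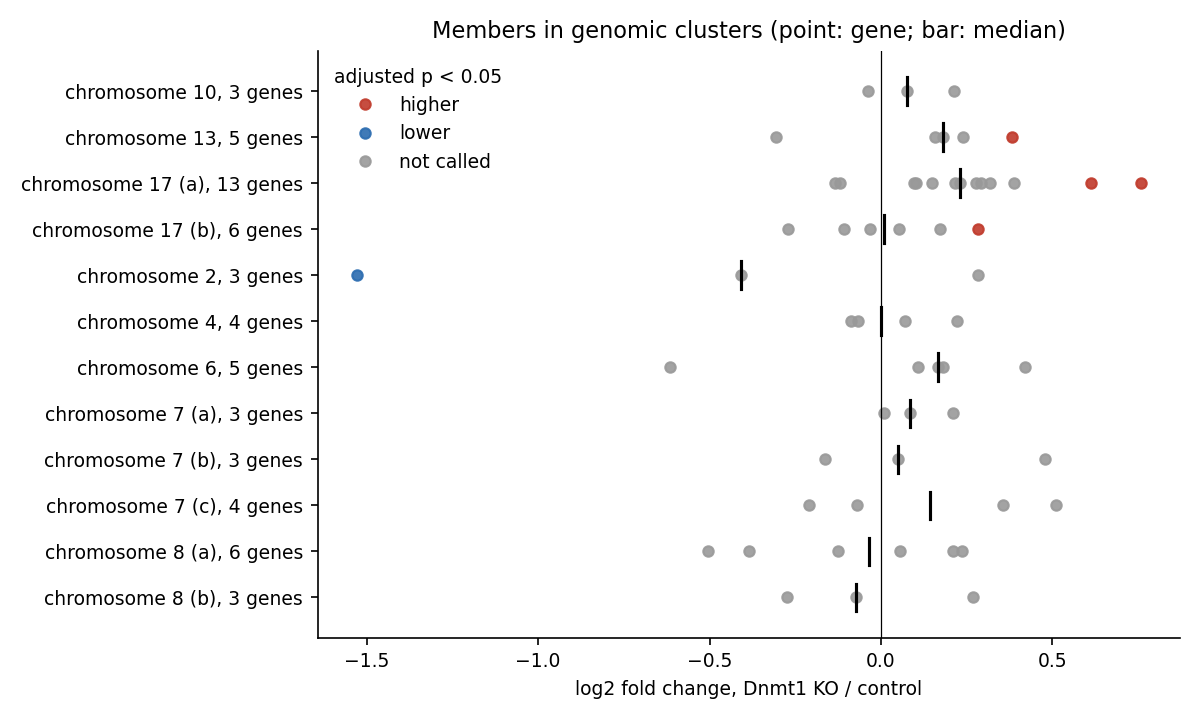
Log2 fold change (x axis) of the 58 members in 12 genomic clusters (1 row per cluster, named by chromosome and number of genes; letters separate clusters of 1 chromosome). Points are genes, red if called higher and blue if called lower, and black bars are medians. In the cluster of 13 genes on chromosome 17, 11 points lie above 0. The first chromosome 7 row lies wholly above 0 (0.01 to 0.21), and the 10 others hold points on both sides.

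The members' cofactors were read from a list of 25 genes for the KRAB corepressor machinery, of which 24 were tested. *Trim28*, the scaffold that KRAB boxes bind, had 2717 and 2644 in the control and 2603 and 2744 in the KO libraries (log2 fold change 0.00 ± 0.05 SE, limma adjusted p = 0.972). *Setdb1*, the histone methyltransferase of the complex, had 651 and 643 against 640 and 569 (-0.10 ± 0.08 SE, limma adjusted p = 0.475). *Trim28* overlapped between the genotypes, and *Setdb1* was slightly lower in both KO libraries without being called.

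Of the 24 genes, 4 rose and 4 fell (16.7% each), with a median of -0.05. Among all genes tested, 8.3% were called higher and 8.99% lower. DESeq2 called 3 of the 24 higher and 1 lower, without *Atf7ip*, *Cbx1*, *Hdac1* and *Sumo2*. *Atrx*, a chromatin remodeler that deposits histone H3.3 with *Daxx* at repeats, had 3181 and 3466 in the control and 4135 and 4168 in the KO libraries (0.32 ± 0.05 SE, limma adjusted p = 0.000479). *Tasor*, a subunit of the HUSH silencing complex, had 519 and 596 against 752 and 707 (0.39 ± 0.09 SE, limma adjusted p = 0.00613). With the length and GC trend removed these 2 were 0.08 and 0.16 and no longer called. *Chd3*, a remodeler of the NuRD complex, had 7426 and 7624 against 8786 and 9025 (0.24 ± 0.04 SE, limma adjusted p = 0.000646), and *Atf7ip*, the partner of *Setdb1*, had 1695 and 1734 against 2044 and 1879 (0.19 ± 0.06 SE, limma adjusted p = 0.0381). Both were also called after that step. Without control replicate 1, *Tasor* and *Atf7ip* were not called, and *Atf7ip* was not called without control replicate 2 or without KO replicate 1 either.

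The 4 that fell were the HP1 genes *Cbx1* and *Cbx3*, the deacetylase gene *Hdac1* and the modifier gene *Sumo2*. *Cbx3* had 1729 and 1738 in the control and 1470 and 1372 in the KO libraries (-0.29 ± 0.06 SE, limma adjusted p = 0.00416), and *Cbx1* had 683 and 718 against 578 and 579 (-0.27 ± 0.08 SE, limma adjusted p = 0.0258). *Hdac1* had 445 and 467 against 338 and 368 (-0.37 ± 0.10 SE, limma adjusted p = 0.0157), and *Sumo2* had 1185 and 1216 against 1067 and 958 (-0.25 ± 0.07 SE, limma adjusted p = 0.0255). In all 4 both KO libraries lay below both controls, as they did in 29.0% of all genes tested. With the length and GC trend removed, *Cbx3* was still called (-0.29, limma adjusted p = 0.00432), and the calls of *Cbx1* (-0.12, limma adjusted p = 0.349), *Sumo2* (-0.13, limma adjusted p = 0.238) and *Hdac1* (-0.29, limma adjusted p = 0.0524) were lost. *Cbx3* was also called in each fit without 1 library. The calls of the other 3 were lost without control replicate 2, that of *Sumo2* also without control replicate 1 or KO replicate 2, that of *Cbx1* without either KO replicate, and that of *Hdac1* without KO replicate 1. Cycling progenitor markers fell in the same libraries, as given above, and their part in these 4 changes was not tested.

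At the threshold that defines the set, the 3 members with the lowest means were *Zfp947* (10.3), *Zfp976* (10.3) and *Zfp977* (13.5), and the 3 highest of the 27 rows left out were *Zfp953* (9.49), *Zfp808* (5.27) and *Zfp979* (3.91). No test was made on these values. Of the 107, 105 had a mean of at least 10 in both genotypes. *Zfp947* passed with 9.19 in the control and 11.3 in the KO, and *Zfp965* passed through its control level alone, with 24.3 and 8.16. Of the 27 rows below the threshold, 10 had no read in any library, among them *Zfp978*, *Zfp986* and *Zfp988*.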

How the data were processed

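RNA sequencing was analyzed for 2 control and 2 *Dnmt1* KO libraries, grouped by their sample labels. The authors used Trim Galore for trimming, STAR for alignment to GRCm39, Salmon for quantification and DESeq2 for normalization, and deposited the signal as 1 normalized count per gene and library. Divided by the smallest value of the library, 100% of nonzero values came within 0.0001 of a whole number, so whole reads were recovered (6970247 to 8376711 per library). Each SD rests on 2 values, and separate cultures or litters are not given for the replicates, so p-values measure only the spread between these libraries.

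The main test was limma 3.58.1 (R 4.3.3) with a variance trend and a single genotype term, applied to log2(normalized count + 1) of the 14323 genes whose mean reached 10, with Benjamini-Hochberg adjustment over those genes. On this scale the fold changes of low genes are understated. The members and gene lists were chosen with earlier results of these data known. Named genes are all members called, the 5 highest per kilobase, the 3 on either side of the threshold, members with a known role, called corepressor genes and *Dnmt1*, together with the highest and lowest genes of a cluster. The other genes named (*Zfp758*, *Zfp771*, *Zfp781*, *Zfp783*, *Zfp939*, *Zfp945*, *Zfp968*, *Zfp969*, *Zfp970*, the rows without a read, and the uncalled *Trim28* and *Setdb1*) were chosen after their values were seen. Positions, transcripts and sequences came from GENCODE vM39 on GRCm39, which held all 107 members. Fingers and KRAB boxes were found by residue pattern in the translated canonical transcripts, and shared 75-base windows and protein identity with BLAST+. Of the members, 62 overlap a gene on the opposite strand and 32 one on the same strand, and whether reads were counted by strand is not given in the sources used here.

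As alternatives, pseudocounts of 0.5 and 10, minimum means of 1 and 50, TMM factors, quantile normalization, no variance trend, 3 count methods on the recovered reads (edgeR 4.0.16, DESeq2 1.42.0, limma-voom), a correction for transcript length and GC (spline, 5 degrees of freedom), a replicate block, and fits without 1 library were run. Members with near-identical proteins were also left out of the counts of the main fit, without a new fit. Leaving out members with at least 10% of windows shared, requiring a mean of 10 in both genotypes, and summing near-identical pairs were chosen after seeing the data. Same-numbered libraries did not deviate together (r = -0.085 over 14323 genes).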

Additional observations from a re-analysis of the deposited data

How the results depend on the processing

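Of the 8 members higher and 1 lower, edgeR, limma-voom, TMM factors, both pseudocounts and the replicate block kept the same 9 calls. The replicate numbers do not pair the libraries, and the block gave 8 higher, 1 lower, 25 and 5 other Zfp genes, 4 and 5 corepressor genes, and a log2 fold change of -0.07 for *Dnmt1*. DESeq2 called 1 member higher and 0 lower, with 10 and 2 other Zfp genes and 1 corepressor gene lower. Without the variance trend limma called 0 genes in the members, other Zfp genes and corepressor genes, in either direction, although 19 members (17.8%, against 23.3% of all genes) had an unadjusted p below 0.05. With the length and GC trend removed, 3 members, 8 other Zfp genes and 1 corepressor gene were lower. The share of all genes called in that fit is not given here. The count of lower members was 0 with a mean of at least 50, with quantile normalization, with near-identical proteins left out, with shared windows left out, and with a mean of at least 10 in both genotypes, settings that except for quantile normalization leave *Zfp965* out.

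Without control replicate 1, 1 member was called higher (*Zfp704*), and without control replicate 2, 2 were (*Zfp704* and *Zfp941*). Over the 4 fits that left out a library, 1 to 6 members were higher and 0 to 4 lower, 13 to 19 and 3 to 6 other Zfp genes, and 2 to 4 and 1 to 3 corepressor genes. The 4 lower without KO replicate 1 were *Zfp781*, *Zfp783*, *Zfp965* and *Zfp970*, and without KO replicate 2 *Zfp781*, *Zfp771* and *Zfp939* were among the higher. In such a fit the lone library is assumed to vary like the others, and fewer libraries leave less power.

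The members' median log2 fold change of 0.12 was 0.12 with DESeq2 (0.116) and limma-voom (0.115), 0.11 with edgeR (0.113), 0.10 with a pseudocount of 10 (0.105), 0.13 with a mean of at least 50 or with shared windows left out (0.131), 0.19 with quantile normalization (0.186), and -0.02 with the length and GC trend removed (-0.0165). Leaving out a library gave 0.08 to 0.12 (0.0756 to 0.125). Quantile normalization and the length and GC step moved the median of all genes to 0.02 and 0.04. *Zfp781*, chosen after its values were seen, was -0.04 over all libraries, -0.94 and called lower without KO replicate 1, and 0.87 and called higher without KO replicate 2. The named genes below that changed sign were uncalled in every fit. With the length and GC trend removed, *Dnmt1* became 0.016 and *Zfp809* 0.089. With quantile normalization, *Zfp809* became 0.12 and *Zfp932* 0.036. Without 1 library, *Zfp706* ranged from -0.083 to 0.042, *Zfp708* from -0.73 to 0.12, *Zfp768* from -0.24 to 0.10, *Zfp809* from -0.14 to 0.10, *Zfp827* from -0.17 to 0.059, and *Zfp932* from -0.26 to 0.15. Of 509 alternative values for 32 named genes, 416 kept their direction and side of the threshold, 79 lost a call, 1 gained one and 13 changed sign. The cause of these changes was not tested. Depth limits the members most below a mean of 50, where no 95% interval lay within -0.5 and 0.5.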
